A study of Schizosaccharomyces pombe with 6 samples.

Results

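The 10 genes described here encode the core of the fission yeast switch into mitosis and its G1 counterpart. They were chosen by name among 7268 genes, for their roles in cell size and cell cycle control. The rule that picked them uses no measured value, but it was set with earlier results of these data known. They are the cyclin-dependent kinase gene cdc2, the cyclin genes cdc13, cig1, cig2 and puc1, the phosphatase gene cdc25, the kinase genes wee1, cdr1 and cdr2, and the inhibitor gene rum1. All 10 were found in the files, and all 10 were among the 4847 genes with a mean level high enough to be tested.

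PolyA RNA was measured in wild-type haploid cells of the heterothallic strain 972 h-, grown in rich YES medium. Rapamycin inhibits the growth-controlling kinase complex TORC1, and rapalink-1 is a bi-steric compound that joins a rapamycin unit to an inhibitor of the TOR kinase site through a linker. The 3 conditions were untreated cells, cells given 100 nM rapamycin and cells given 100 nM rapalink-1, each harvested 5 h after treatment began. Each condition had 2 libraries, which the methods call biological replicates, so that 6 libraries were available. Per the labels, 2 mother cultures were divided into 3 flasks each, with no record of which flasks shared a mother culture, and all cells carried the same genotype. A population of cells at every stage of the cycle was sequenced, so that fewer cells at a stage that expresses a gene and less RNA per cell cannot be told apart. RNA levels do not show protein amounts, phosphorylation or kinase activity.

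In fission yeast, cells enter mitosis when Cdc2, bound to its B-type cyclin Cdc13, becomes active. Wee1 holds the complex back by phosphorylating a tyrosine near the start of Cdc2, and Cdc25 removes that phosphate. The kinases Cdr1 and Cdr2 inhibit Wee1 at nodes in the middle of the cell and tie mitotic entry to cell size. In G1, Cig2, Cig1 and Puc1 partner Cdc2, while Rum1 inhibits the cyclin-bound kinase. TOR activity is known to feed into this switch, since slower TOR signalling lets fission yeast divide at a smaller size.

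The tyrosine that Wee1 and Cdc25 act on is encoded by codon 15 of cdc2. The stretch below is codons 10 to 20 of the RefSeq coding sequence (assembly ASM294v3, chrII:1500367-1500467, plus strand, joined across an intron), with the tyrosine codon in capitals. It is shown because wee1 and cdc25 encode the enzymes that act on this residue, and cdr1 and cdr2 act through Wee1.
cdc2 codons 10 to 20: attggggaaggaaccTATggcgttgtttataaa

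Before the RefSeq gene starts, cig2 and cig1 carried the core of a G1-S promoter box that the other 8 genes lacked there. The 250 bases before the RefSeq gene start of all 10 genes were searched on both strands for ACGCG, the core of the MluI cell cycle box that the G1-S transcription factor MBF binds. This core occurred at 5 places before cig2, at 2 places before cig1 and at none before the other 8 genes, with overlapping matches on the 2 strands counted as 1 place. For puc1 the searched bases, chrII:3701690-3701939, lie inside the gene model of the files, which runs to 3702782 on the minus strand. The bases before that longer model were not searched. Most of the bases searched for cdc25 also lie inside its model in the files, which ends at 482556 against 482373 in RefSeq. The full box, ACGCGT, was found once before cig1 and not before cig2, and 2.64% of upstream regions held it. Among 5123 upstream regions of that length, 9.448% held the core at 1 place or more, 1.464% at 2 places or more and 0.059% at 5 places or more. The latter were those of cig2, of the replication licensing gene cdc18 and of ssb1, a subunit of the single-strand DNA binding complex. The 2 regions with the core are printed in the direction of the gene, with the core in capitals where it lies on either strand. They come from RefSeq, assembly ASM294v3, at chrI:2709532-2709781 for cig2 and chrIII:1226976-1227225 for cig1, both on the plus strand. A match of letters is a description and does not show that a factor was bound.
cig2 upstream: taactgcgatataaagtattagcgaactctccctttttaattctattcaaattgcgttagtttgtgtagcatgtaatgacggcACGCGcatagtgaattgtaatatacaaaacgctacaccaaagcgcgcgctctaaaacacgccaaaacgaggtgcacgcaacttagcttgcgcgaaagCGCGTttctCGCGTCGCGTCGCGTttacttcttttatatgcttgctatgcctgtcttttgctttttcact
cig1 upstream: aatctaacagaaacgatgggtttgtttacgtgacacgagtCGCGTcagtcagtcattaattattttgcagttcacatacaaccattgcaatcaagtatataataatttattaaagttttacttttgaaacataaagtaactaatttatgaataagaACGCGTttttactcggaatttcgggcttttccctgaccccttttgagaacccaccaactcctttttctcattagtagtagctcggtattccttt

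Levels are given as FPKM, fragments per kilobase of gene model scaled by the authors to library size. Whole reads could be recovered from these values, and the library totals ran from 16527483 to 26321118 reads. The 10 genes had between 344 reads (cig2, the first rapalink-1 library) and 12188 reads (cdc13, the second rapamycin library). Duplicates differed by more than counting noise, and none was counted as a repeat of another. The chi-square statistic of their reads over genes, divided by its degrees of freedom, was 5.18 (untreated), 9.23 (rapamycin) and 7.56 (rapalink-1). The mating type label was checked against the genes mfm1, mfm2, mfm3, mam1 and mam2 of M cells, whose summed level was 94.5 to 98.5 FPKM untreated, 115 to 124 FPKM with rapamycin and 399 to 435 FPKM with rapalink-1, with mfm3 at 0 in every library. Most of that sum was mfm2, at 52.2 and 55.1 FPKM untreated and 327 and 300 FPKM with rapalink-1. mfm1 alone was at 2.15 to 3.06 FPKM over the untreated and rapamycin libraries. The P-cell genes map2 and map3 lay between 2.21 and 3.56 FPKM in every library. Of 5 meiosis and sporulation genes, spo6, mcp5, mde2 and meu14 were listed at 0 in every library, and mei4 was at 3.75 to 6.24 FPKM. Since the M-cell gene mfm3 was listed at 0 too, a 0 was not read as the absence of a transcript. The rise of the M-cell genes moved with rapalink-1, as did several results below, and its part in them was not tested.

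In untreated cells the levels of the 10 genes ran over more than an order of magnitude. cdc13 stood highest, at 179.7 ± 0.49 FPKM (SD, n = 2), which placed it at the 85.6th percentile of protein-coding genes. It was followed by cdr1 at 58.5 ± 3.68, cdc2 at 48.7 ± 1.90 and cdc25 at 48.3 ± 1.34 FPKM (SD, n = 2 each). Then came cdr2 at 43.3 ± 1.56, cig1 at 43.1 ± 2.32, rum1 at 29.8 ± 0.57 and wee1 at 23.2 ± 0.93 FPKM (SD, n = 2 each). puc1 at 9.78 ± 0.24 and cig2 at 7.75 ± 0.37 FPKM (SD, n = 2 each) were lowest, at the 11.9th and 9.47th percentiles. Neighbours in this order did not overlap between libraries, except that cdc2 overlapped cdc25 and cdr2 overlapped cig1. With rapalink-1, cdc25, cdr2, cig1 and cdc2 lay together, with means between 41.6 and 42.9 FPKM.

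**Figure D1:**
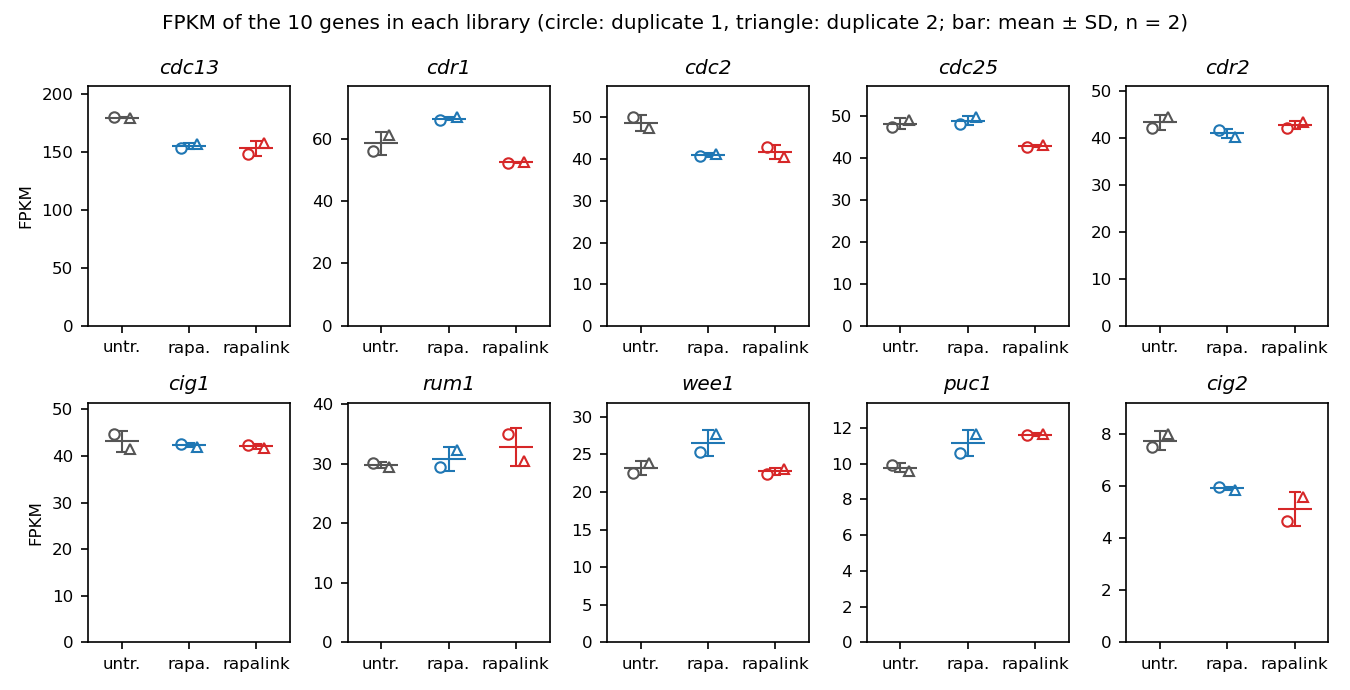
FPKM (linear axis from 0, a separate scale for each gene) of the 10 genes in the untreated, rapamycin and rapalink-1 libraries, ordered by untreated level. Circles and triangles are the 2 libraries, and bars give the mean ± SD (n = 2). cdc13 and cdc2 sat lower in all 4 treated libraries than in both untreated ones, and cig2 was lowest with rapalink-1.

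Each condition was compared with each other condition by limma on log2(FPKM + 1), fitted to all 6 libraries and 4847 genes, with Benjamini-Hochberg adjusted p-values. A gene is said to have changed where the adjusted p was at most 0.05. All fold changes below are on this scale, which understates the change of low genes. The 2 drug comparisons share the untreated libraries. The changes of the 10 genes were small as fold changes, but not all were small in rank. The largest was -0.51 on the log2 scale (cig2 with rapalink-1), beside a median size of 0.171 over all genes tested in that comparison. Counted from the most lowered gene, cig2 stood at the 1.34th percentile with rapalink-1 and at the 1.13th with rapamycin, each against untreated cells. With rapamycin, cdc2 stood at the 3.88th and cdc13 at the 6.33rd percentile, and the highest member, wee1, at the 83.4th.

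With rapamycin, 3 of the 10 genes changed against untreated cells: cdr1 rose, and cdc2 and cdc13 fell. Over all genes tested, 17.7% changed in this comparison, 10.4% upward and 7.28% downward. With rapalink-1, 6 of the 10 changed, with puc1 higher and cdc2, cdc13, cdc25, cdr1 and cig2 lower. The share over all genes was 47.3%, with 24.8% higher and 22.5% lower. Between rapalink-1 and rapamycin, cdc25, wee1 and cdr1 were lower after rapalink-1, which is 3 of 10. Over all genes 37.2% differed between the drugs, 19.7% higher and 17.4% lower with rapalink-1. The median log2 change of the 10 genes was 0.0014, -0.089 and -0.012 in the 3 comparisons, beside 0.0048, -0.0070 and -0.0036 over all genes tested. Libraries of the 2 conditions did not overlap for 7, 7 and 5 of the 10 genes, against 63.9%, 75.2% and 70% of all genes. With rapalink-1 against untreated cells, 5 of the 10 were lower, beside 22.5% of all genes, and 1 was higher, beside 24.8%. The 10 genes were not tested as a group, and the results below are those of single genes. The split of direction over all genes depended on the scaling. Higher genes made up 52.4% of the changed genes with rapalink-1 against untreated cells and 53.1% against rapamycin, but 38.8% and 41.6% after quantile normalization.

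**Figure D2:**
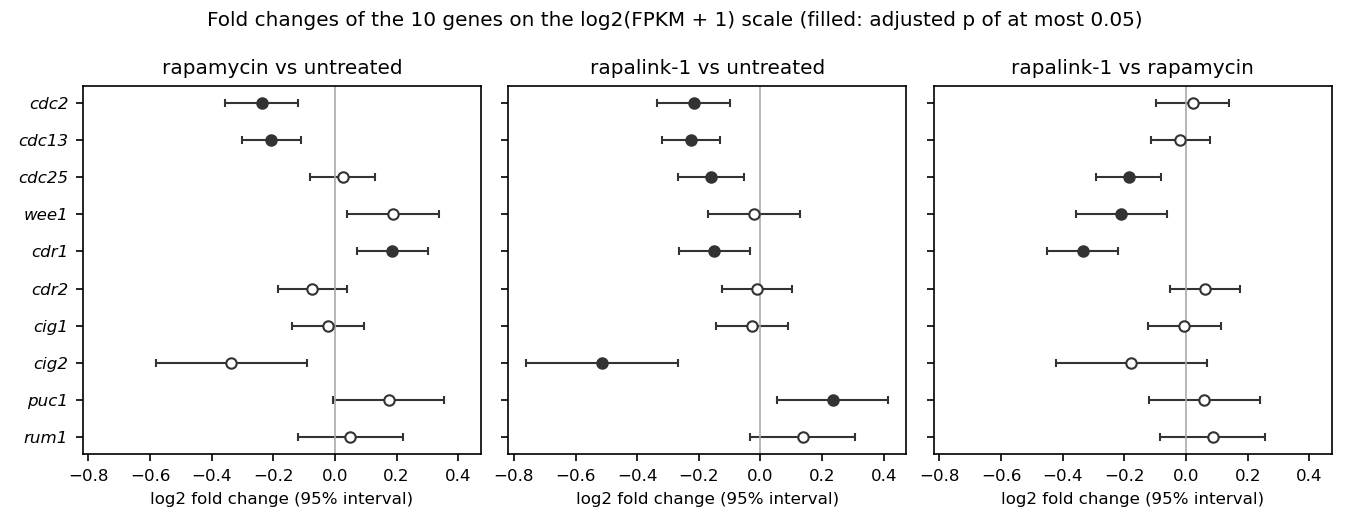
Log2 fold changes of the 10 genes on the log2(FPKM + 1) scale (horizontal axis) in the 3 comparisons, with bars for the 95% interval from limma. Filled points have an adjusted p of at most 0.05: 3 of 10 with rapamycin, 6 of 10 with rapalink-1 and 3 of 10 between the drugs.

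The mitotic kinase and its cyclin fell together with both drugs. cdc13 (SPBC582.03, chromosome II, 420076 to 423276), the B-type cyclin without which cells do not enter mitosis, had 180.1 and 179.4 FPKM untreated, 153.3 and 157.2 FPKM with rapamycin and 148.4 and 158.0 FPKM with rapalink-1. All 4 treated libraries lay below both untreated ones. Its log2 fold change was -0.21 with rapamycin (SE 0.041, adjusted p = 0.0130 from limma) and -0.22 with rapalink-1 (SE 0.041, limma adjusted p = 0.00252). The drugs gave overlapping levels, with a difference of -0.02 (95% interval -0.11 to 0.08).

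cdc2 (SPBC11B10.09, chromosome II, 1500197 to 1502095), the catalytic subunit, had 50.0 and 47.3 FPKM untreated, 40.7 and 41.3 FPKM with rapamycin and 42.8 and 40.4 FPKM with rapalink-1. Here too the treated libraries were all below the untreated ones. The log2 fold change was -0.24 with rapamycin (SE 0.052, adjusted p = 0.0171 from limma) and -0.22 with rapalink-1 (SE 0.052, limma adjusted p = 0.00883). The difference between the drugs was 0.02 (95% interval -0.10 to 0.14), and the libraries overlapped. An antisense transcript, cdc2-antisense-1, covers 31.7% of the span of cdc2 and reached at most 0.300 FPKM.

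The fall of cdc13 with rapalink-1 held in all 17 other settings. With rapamycin, the calls of both genes were lost when the first untreated library was left out (adjusted p = 0.0946 for cdc2 and 0.0550 for cdc13 from limma), when the first rapamycin library was left out (0.0855 and 0.0736) and when the second was (0.0838 and 0.0587). With rapalink-1, the call of cdc2 was lost without the first untreated library (adjusted p = 0.0609 from limma).

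The ratio of cdc13 to cdc2 did not separate the conditions. It was 3.60 and 3.79 untreated. The rapamycin libraries gave 3.77 and 3.80, and the rapalink-1 libraries gave 3.47 and 3.91. Exact permutation tests of the ratio (two-sided, n = 2 each) gave p = 0.667 for rapamycin and p = 1 for rapalink-1 against untreated cells, and p = 1 between the drugs. The smallest p that 2 against 2 libraries allow is 0.33, so that this test cannot pass the threshold.

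The opposing pair wee1 and cdc25 differed between the drugs. cdc25 (SPAC24H6.05, chromosome I, 479228 to 482556), the phosphatase that drives entry, had 47.3 and 49.2 FPKM untreated, 48.2 and 49.7 FPKM with rapamycin and 42.7 and 43.1 FPKM with rapalink-1. Both rapalink-1 libraries were below the other 4, which overlapped. It fell by 0.16 on the log2 scale with rapalink-1 against untreated cells (SE 0.046, adjusted p = 0.0203 from limma) and by 0.19 against rapamycin (SE 0.046, adjusted p = 0.0135 from limma). Between rapamycin and untreated cells the difference was 0.02 (95% interval -0.08 to 0.13).

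wee1 (SPCC18B5.03, chromosome III, 721788 to 725835), the kinase that delays entry, had 22.6 and 23.9 FPKM untreated, 25.3 and 27.7 FPKM with rapamycin and 22.5 and 23.1 FPKM with rapalink-1. The rapamycin libraries were the highest 2, and the other 4 overlapped. It was lower with rapalink-1 than with rapamycin, by 0.21 on the log2 scale (SE 0.065, adjusted p = 0.0339 from limma). Against untreated cells the rapamycin value was 0.19 higher (95% interval 0.04 to 0.34), with an adjusted p of 0.0774 from limma, which missed the threshold, and 0.0277 from edgeR on the recovered reads, which passed it. The difference between rapalink-1 and untreated cells was -0.02 (95% interval -0.17 to 0.13).

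These calls rested on few libraries. For cdc25, the call against untreated cells was lost without the second untreated library (adjusted p = 0.109 from limma) or the first rapalink-1 library (0.0691), and the call between the drugs without the second rapamycin library (0.10) or the first rapalink-1 library (0.0557). For wee1, the call between the drugs was lost without the second rapamycin library (0.217), the first rapalink-1 library (0.133) or the second (0.0698).

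The ratio of cdc25 to wee1 level was 2.10 and 2.06 untreated. The rapamycin libraries gave 1.90 and 1.79, and the rapalink-1 libraries gave 1.90 and 1.87. All 4 treated libraries lay below both untreated ones, by 0.23 in the mean for rapamycin and 0.19 for rapalink-1. The exact permutation test (two-sided, n = 2 each) gave p = 0.33 in each case, the smallest that this design allows. The drugs overlapped (exact p = 0.667). With rapamycin the wee1 libraries lay above the untreated ones while those of cdc25 overlapped, but wee1 missed the threshold (adjusted p = 0.0774 from limma). Libraries did not overlap for 63.9% of all genes in that comparison. With rapalink-1, cdc25 passed as lower and the wee1 libraries overlapped the untreated ones.

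**Figure D3:**
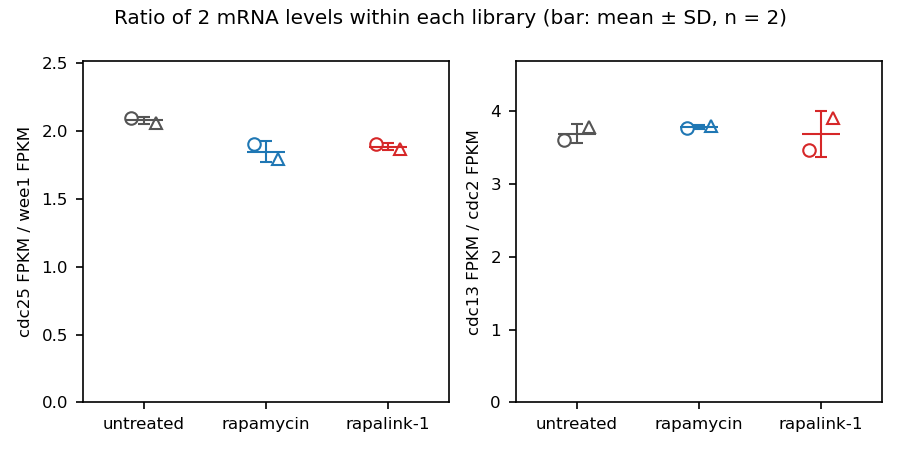
Ratio of cdc25 to wee1 FPKM (left) and of cdc13 to cdc2 FPKM (right) in each library, on linear axes from 0, with bars for the mean ± SD (n = 2). The cdc25 to wee1 ratio was 2.06 and 2.10 untreated and between 1.79 and 1.90 in the 4 treated libraries, while the cdc13 to cdc2 ratio overlapped between conditions.

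Of the 2 kinases that inhibit Wee1, cdr1 moved in opposite directions with the 2 drugs and cdr2 did not pass the test in any comparison. cdr1 (SPAC644.06c, chromosome I, 2679468 to 2682516), which phosphorylates Wee1 directly, had 55.9 and 61.1 FPKM untreated, 66.0 and 66.8 FPKM with rapamycin and 52.3 and 52.5 FPKM with rapalink-1. The 3 conditions did not overlap at any point, and rapamycin was highest. It rose by 0.19 on the log2 scale with rapamycin (SE 0.051, adjusted p = 0.0387 from limma). It fell by 0.15 with rapalink-1 (SE 0.051, limma adjusted p = 0.0392). The direct comparison of the drugs gave -0.34 (SE 0.051, adjusted p = 0.00120 from limma), a change of -20.7% on the FPKM + 1 scale.

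The difference of cdr1 between the drugs passed in all 17 other settings, with adjusted p-values from 1.74e-06 to 0.0131. The comparisons with untreated cells were less firm. The rise with rapamycin was lost without the first untreated library (adjusted p = 0.206 from limma), the first rapamycin library (0.123) or the second (0.178). The fall with rapalink-1 was lost without the second untreated library (0.235), the first rapamycin library (0.0712), the second rapamycin library (0.0695), the first rapalink-1 library (0.112) or the second (0.0888). Quantile normalization also ended the call of the rise (0.0579).

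cdr2 (SPAC57A10.02, chromosome I, 1364749 to 1367968), which organises the nodes that hold Cdr1 and Wee1, had 42.2 and 44.4 FPKM untreated, 41.6 and 40.3 FPKM with rapamycin and 42.1 and 43.4 FPKM with rapalink-1. Its log2 differences were -0.07 with rapamycin (95% interval -0.19 to 0.04), -0.01 with rapalink-1 (-0.12 to 0.10) and 0.06 between the drugs (-0.05 to 0.18). The highest library was 1.10 times the lowest.

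Among the G1 cyclins, the low gene cig2 had the largest change of the 10. cig2 (SPAPB2B4.03, chromosome I, 2709731 to 2714162), the main S-phase cyclin and the gene with the box core at 5 places upstream, had 7.49 and 8.01 FPKM untreated, 5.96 and 5.86 FPKM with rapamycin and 4.65 and 5.60 FPKM with rapalink-1. The conditions did not overlap, and rapalink-1 was lowest. It fell by 0.51 on the log2 scale with rapalink-1 (SE 0.11, limma adjusted p = 0.00480), and this call held in the other 17 settings apart from the filter at a mean of 10 FPKM, under which the gene was not tested. With rapamycin the difference was -0.34 (SE 0.11), and the adjusted p was 0.0616 from limma, 0.0121 from edgeR and 0.0126 from DESeq2 on the recovered reads. Without the first or the second rapalink-1 library the limma value was 0.0440 or 0.0455. Between the drugs the difference was -0.18 (95% interval -0.42 to 0.07), which did not pass.

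The model of cig2 overlaps that of pmc1, a vacuolar calcium-transporting ATPase gene on the opposite strand, over 1459 bases, or 32.92% of its span. The strand setting of the counting is not given in the sources used here, so that reads from the shared bases cannot be told apart. pmc1 itself had 30.6 and 32.7 FPKM untreated, 32.7 and 34.7 FPKM with rapamycin and 23.1 and 27.0 FPKM with rapalink-1. It fell with rapalink-1 (-0.33, SE 0.078, limma adjusted p = 0.00899) and did not pass with rapamycin (0.09, adjusted p = 0.450 from limma). A second overlapping model, cig2-antisense-1, was at 0 in every library.

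puc1 (SPBC19F5.01c, chromosome II, 3699198 to 3702782), a G1 cyclin, was the only one of the 10 that rose with rapalink-1. It had 9.95 and 9.61 FPKM untreated, 10.6 and 11.7 FPKM with rapamycin and 11.6 and 11.7 FPKM with rapalink-1, so that all treated libraries were above the untreated ones. The log2 fold change was 0.23 with rapalink-1 (SE 0.079, limma adjusted p = 0.0390). With rapamycin it was 0.17 (SE 0.079, adjusted p = 0.159 from limma), and between the drugs 0.06 (95% interval -0.12 to 0.24). The rapalink-1 call was lost without the first untreated library (adjusted p = 0.0934 from limma), the second (0.150), the first rapalink-1 library (0.103) or the second (0.104), and after quantile normalization (0.237). SPBP8B7.31 overlaps 4.16% of the span of puc1 and moved the other way with rapalink-1 (-0.26, adjusted p = 0.00454 from limma).

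cig1 (SPCC4E9.02, chromosome III, 1227174 to 1229303), a B-type cyclin whose upstream region holds the box core at 2 places, was the steadiest of the 10. It had 44.8 and 41.5 FPKM untreated, 42.6 and 42.0 FPKM with rapamycin and 42.4 and 41.7 FPKM with rapalink-1. Its log2 differences were -0.02 with rapamycin (95% interval -0.14 to 0.10), -0.03 with rapalink-1 (-0.15 to 0.09) and -0.01 between the drugs (-0.12 to 0.11). The libraries overlapped in every comparison, and the highest was 1.08 times the lowest.

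rum1 (SPBC32F12.09, chromosome II, 2799685 to 2801917), the inhibitor of Cdc2-cyclin complexes in G1, had 30.2 and 29.4 FPKM untreated, 29.4 and 32.2 FPKM with rapamycin and 35.0 and 30.5 FPKM with rapalink-1. Both rapalink-1 libraries were above the untreated ones, with a wide gap between them. The log2 differences were 0.05 with rapamycin (95% interval -0.12 to 0.22), 0.14 with rapalink-1 (-0.03 to 0.31) and 0.09 between the drugs (-0.08 to 0.26). None passed the test, although the rapalink-1 value passed (0.24, adjusted p = 0.0363 from limma) when the second rapalink-1 library was left out.

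Genes that act with the 10 were read from 11 lists with 104 genes, of which 98 were tested. With rapamycin 7 of the 98 rose and 8 fell, with rapalink-1 18 rose and 15 fell, and between the drugs 19 were higher with rapalink-1 and 11 lower. The corresponding shares over all genes were the 17.7%, 47.3% and 37.2% given above. In no comparison was the share of listed genes that changed above the share over all genes.

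The route from TOR to mitotic entry through the Greatwall kinases, endosulfine and the phosphatase PP2A was the first of these. In fission yeast, the Greatwall kinase Ppk18 acts when TORC1 slows, and with the endosulfine Igo1 it inhibits PP2A bound to its regulatory subunit Pab1. ppk18 had 20.9 and 23.7 FPKM untreated, 28.5 and 28.4 FPKM with rapamycin and 18.6 and 21.2 FPKM with rapalink-1. It rose with rapamycin (0.34, adjusted p = 0.0220 from limma) and was lower with rapalink-1 than with rapamycin (-0.50, adjusted p = 0.00170 from limma), while its difference between rapalink-1 and untreated cells did not pass (-0.15, adjusted p = 0.151 from limma). The order of the condition means was that of cdr1, although the untreated and rapalink-1 libraries of ppk18 overlapped. The rise was lost without the first untreated library or either rapamycin library, with adjusted p-values up to 0.116.

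igo1, named mug134 in the files, had 110.8 and 113.1 FPKM untreated, 140.9 and 149.1 FPKM with rapamycin and 126.5 and 123.8 FPKM with rapalink-1. It rose with rapamycin (0.37, adjusted p = 0.00142 from limma), less with rapalink-1 (0.16, adjusted p = 0.0117 from limma), and the difference between the drugs passed (-0.21, adjusted p = 0.00474 from limma). Its rapalink-1 call was lost without the first untreated library (adjusted p = 0.0666 from limma) and after quantile normalization. cek1, a Greatwall-related kinase gene, was lower with rapalink-1 than with rapamycin (-0.25, adjusted p = 0.0138 from limma). That call was lost without the second rapamycin or the first rapalink-1 library, with values up to 0.101. pab1 was lower with rapalink-1 than untreated (-0.14, adjusted p = 0.0190 from limma), a call lost without any 1 of the untreated or rapalink-1 libraries (up to 0.0839). Of the 11 genes of this list, 2 rose with rapamycin, 1 rose and 2 fell with rapalink-1, and 3 were lower when rapalink-1 was set against rapamycin.

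**Figure D4:**
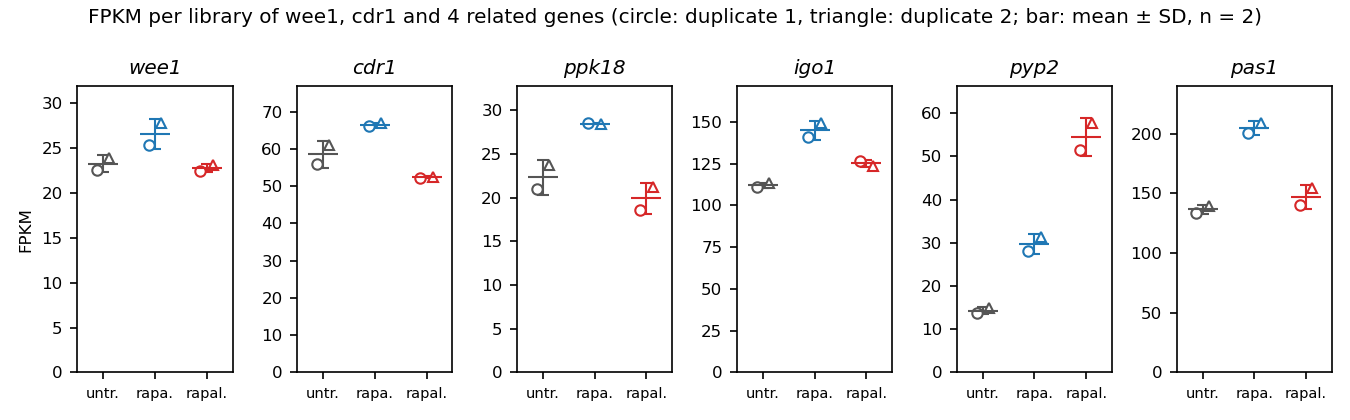
FPKM per library (linear axes from 0, a separate scale for each gene) of wee1, cdr1, ppk18, igo1, pyp2 and pas1 in untreated, rapamycin and rapalink-1 cells, with bars for the mean ± SD (n = 2). The genes were picked for display, pas1 after its values were seen. pyp2 rose from 13.7 and 14.9 FPKM untreated to 51.5 and 57.7 FPKM with rapalink-1.

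Among 10 regulators related to Wee1 and Cdc25, the largest changes with rapalink-1 were in the phosphatase genes pyp2 and pyp1 and in rad25, 1 of the 2 genes for 14-3-3 proteins. pyp2, a tyrosine phosphatase that inactivates the stress kinase Sty1 and delays mitosis, had 13.7 and 14.9 FPKM untreated, 28.1 and 31.3 FPKM with rapamycin and 51.5 and 57.7 FPKM with rapalink-1. It rose by 1.01 with rapamycin (adjusted p = 0.000272 from limma) and by 1.87 with rapalink-1 (adjusted p = 5.6e-07 from limma), on the log2 scale. The drugs differed by 0.86 (adjusted p = 7.53e-05 from limma). The related phosphatase gene pyp1 rose with both, by 0.38 (adjusted p = 0.00251 from limma) and 0.51 (adjusted p = 7.13e-05 from limma).

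rad25, a 14-3-3 protein gene whose product binds Cdc25, was among the most abundant of these genes, with 624 FPKM in both untreated libraries, 587 and 563 FPKM with rapamycin and 935 and 902 FPKM with rapalink-1. It rose with rapalink-1 against untreated cells (0.56, adjusted p = 1.46e-05 from limma) and against rapamycin (0.68, adjusted p = 7.43e-06 from limma). The other 14-3-3 gene, rad24, which lies outside the naming rule, was at 0.02 with rapalink-1 against untreated cells (95% interval -0.10 to 0.13) and at -0.15 with rapamycin (adjusted p = 0.0782 from limma). Likewise the phosphatase gene pyp3 was at 0.02 with each drug, which did not pass. mik1, the kinase that shares the Wee1 task of phosphorylating Cdc2, fell with rapalink-1 (-0.38, adjusted p = 0.00173 from limma). With rapamycin mik1 was also lower (-0.24, adjusted p = 0.0386 from limma), but this call was lost without any 1 of the untreated or rapamycin libraries (up to 0.204). cds1, the replication checkpoint kinase, rose with rapalink-1 (0.42, adjusted p = 0.000903 from limma). In all, 2 of 10 rose and 2 fell with rapamycin, and 4 rose and 1 fell with rapalink-1.

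Of 8 genes that set the position and activity of the Cdr nodes, few changed. pom1, the polarity kinase that restrains Cdr2 at the cell ends, had 24.2 and 24.0 FPKM untreated, 24.6 and 24.2 FPKM with rapamycin and 22.9 and 23.8 FPKM with rapalink-1. Its log2 differences from untreated cells were 0.02 (95% interval -0.10 to 0.15) and -0.04 (-0.17 to 0.08). skb1, a methyltransferase gene of the cell cortex, fell with rapalink-1 (-0.31, adjusted p = 0.00197 from limma), and blt1, a node protein gene, fell with rapamycin (-0.25, adjusted p = 0.0190 from limma). The blt1 call was lost without any 1 of the untreated or rapamycin libraries (up to 0.0928). None of the 5 accessory and CDK-activating genes changed in limma in any comparison. At an unadjusted p under 0.05, 1 of the 5 fell with each drug against untreated cells and 0 differed between the drugs, and edgeR and DESeq2 also called 0. Among them suc1, whose small product binds Cdc2, was at -0.11 and -0.14 with the drugs (adjusted p = 0.210 and 0.0783 from limma).

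Other cyclin and CDK genes were called in 3 of 10 cases with rapalink-1 against untreated cells, each time lower. They were srb10, the kinase of the Mediator module (-0.39, adjusted p = 0.000504 from limma), the CDK gene pef1 (-0.30, adjusted p = 0.00113 from limma) and its cyclin clg1 (-0.25, adjusted p = 0.00888 from limma). The clg1 call was at 0.0509 without the first rapalink-1 library. pas1, another cyclin that partners Pef1 and that was chosen after its values were seen, was highest with rapamycin, as were cdr1 and ppk18. Unlike them, it had both rapalink-1 libraries above the untreated ones, with 134 and 139 FPKM untreated, 201 and 209 FPKM with rapamycin and 140 and 154 FPKM with rapalink-1. It rose with rapamycin (0.59, adjusted p = 0.000463 from limma) and was lower with rapalink-1 than with rapamycin (-0.48, adjusted p = 0.000200 from limma), in every setting tried.

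The genes that destroy cyclins and Rum1 (18 tested, of the APC/C and SCF ubiquitin ligases) had a median log2 change of 0.12 with rapalink-1 against untreated cells, beside -0.0070 over all genes tested. Of the 18, 6 rose and 1 fell, but after quantile normalization 2 rose and 2 fell, with a median of 0.059 beside -0.066 over all genes. apc2 rose by 0.34 (adjusted p = 0.00506 from limma), apc11 by 0.31 (0.0140) and apc10 by 0.29 (0.0346). ste9, named srw1 in the files, the APC/C activator of G1, rose by 0.29 (adjusted p = 0.0329 from limma). The apc11 call was lost without the first untreated or the first rapalink-1 library, and in DESeq2 on the recovered reads (adjusted p = 0.0757). The apc10 call was lost without the second untreated or the first rapalink-1 library. It was also lost in edgeR, in DESeq2, after quantile normalization, without a filter and without the intensity trend. The ste9 call was lost without the first untreated library or either rapalink-1 library, without a filter and after quantile normalization. With rapamycin 1 gene of this list changed by limma. It was slp1, the APC/C activator of mitosis, with 36.2 and 32.4 FPKM untreated, 23.3 and 27.3 FPKM with rapamycin and 36.2 and 31.5 FPKM with rapalink-1, and it was chosen after its values were seen. It fell by 0.42 on the log2 scale with rapamycin (adjusted p = 0.0188 from limma), a call lost without the first untreated or the first rapamycin library (up to 0.101). It was 0.41 higher with rapalink-1 than with rapamycin (adjusted p = 0.00958 from limma), a call lost without the first rapamycin or the first rapalink-1 library (up to 0.0694).

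Genes of MBF, the factor that binds the box whose core stands upstream of cig2, changed in both directions with rapalink-1, and so did its targets. Of its 7 subunit and cofactor genes, 3 rose and 3 fell with rapalink-1, beside 24.8% higher and 22.5% lower over all genes tested. The coactivator gene rep1 rose by 0.78 (adjusted p = 0.000962 from limma), the repressor gene yox1 by 0.29 (0.0162) and the subunit gene res2 by 0.28 (0.00652). The subunit gene cdc10 was lower (-0.14, adjusted p = 0.0430 from limma), a call that no left-out library spared, with values up to 0.138. The yox1 call was lost without the second untreated or the second rapalink-1 library (up to 0.110). Of 9 tested target genes other than cig2, 4 changed with rapamycin, each downward, beside 7.28% lower over all genes tested. With rapalink-1, 2 of the 9 fell and 1 rose. cdc18, with 6 cores upstream, had 18.2 and 17.8 FPKM untreated, 15.6 and 13.9 FPKM with rapamycin and 16.2 and 15.5 FPKM with rapalink-1. It fell with rapamycin (-0.27, adjusted p = 0.0411 from limma), which was lost without either untreated library or the second rapamycin library (up to 0.225), and was at -0.17 with rapalink-1 (adjusted p = 0.0953 from limma). rad21, a cohesin subunit gene, fell with both drugs (-0.28, adjusted p = 0.00826, and -0.35, adjusted p = 0.000654, both from limma). Its rapamycin call was lost without the second rapamycin library (0.0619). cds1 and mik1, described above, belong to this list too. The 4 targets that fell with rapamycin were cdc18, cdc22, rad21 and mik1, with the core at 6, 4, 2 and 0 places upstream. ssb1 with 6 places, cdt2 with 4 and cdt1 with 3 did not pass with either drug against untreated cells. cds1, which rose with rapalink-1, had 0. Of these, cdc22, ssb1, cdt2 and cdt1 lie outside the naming rule. The rapamycin call of cdc22 was lost without either untreated library or the second rapamycin library, and without the intensity trend.

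Later in the cycle, 3 of 14 M-G1 target genes changed with rapalink-1. With rapamycin limma called 0 of the 14, DESeq2 0 and edgeR 1, and 3 had an unadjusted p under 0.05 in limma. The predicted muskelin homologue gene mde6 rose (0.33, adjusted p = 0.0412 from limma), and bir1 of the chromosomal passenger complex (-0.20, 0.0387) and the septation kinase gene sid2 (-0.16, 0.0346) fell, each losing its call when 1 library was left out, for most of the 6 libraries (up to 0.191, 0.199 and 0.190). plo1, the polo kinase that also promotes Cdc25 activity, was at 0.14 with rapamycin (adjusted p = 0.125 from limma) and at -0.03 with rapalink-1 (0.657). mbx1, a transcription factor gene of this interval, rose with rapalink-1 (0.64, adjusted p = 0.000712 from limma) and with rapamycin (0.32, 0.0484), the latter lost without either untreated library or the second rapamycin library (up to 0.257). Of 6 tested septum cleavage genes, 2 rose and 1 fell with rapalink-1. cfh4, a cell wall synthesis regulator gene, rose by 0.35 (adjusted p = 0.000383 from limma), adg1 by 0.14 (0.0178) and the glucanase gene eng1 was lower (-0.20, 0.0250). The adg1 call was lost without the first untreated or the first rapalink-1 library (up to 0.114) and the eng1 call without the second untreated or the second rapalink-1 library (up to 0.132).

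For the 7 genes that changed in at least 1 comparison, the 2 protein-coding genes with the most similar profile over the 6 libraries were read from those with a mean of at least 10 FPKM. Pearson's r of log2(FPKM + 1) is given as a description, since the 6 libraries fall into 3 conditions and 3825 or 3826 genes were searched. cdc2 was closest to iah1 (r = 0.996) and the signal recognition particle gene srp14 (0.990), and cdc13 to SPBC1778.03c (0.997) and the histone chaperone gene sim3 (0.992). cdc25 was closest to SPAC24B11.08c (0.990) and its8 (0.989), wee1 to tgs1 (0.980) and the decapping scaffold gene pdc1 (0.975), and cdr1 to SPAC7D4.12c (0.999) and the vacuolar tethering gene vps11 (0.992). cig2 was closest to the signalosome gene csn4 (0.998) and the TFIIH gene tfb4 (0.992), and puc1 to the phosphodiesterase gene cgs2 (0.989) and ppk27 (0.984). Between 10 (wee1) and 103 (cig2) genes had an r over 0.95 with the gene in question.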

How the data were processed

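Total RNA from the 6 cultures was made into libraries by polyA capture and sequenced paired-end. The authors deposited FPKM values for 7268 genes and, for genes passing their own test, read counts beside fold changes and p-values of their comparisons, which were not used. The submitters' processing notes name HISAT2 2.0.5, StringTie 1.3.3b, featureCounts 1.5.0-p3 and DESeq2. The genome build, annotation and strand setting are not given in the sources used here, so the positions printed for genes are those of the files, without a build.

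FPKM times gene length gave whole reads for 100% of values after 1 constant per library, within 5.24e-10 of a whole number, and equalled the deposited counts for the 2505, 2398 and 2543 genes that could be compared. FPKM values were divided by median-of-ratios factors (0.997 to 1.002). Genes with a mean of at least 1 FPKM were tested by limma-trend 3.58.1 (R 4.3.3) on log2(FPKM + 1), all 6 libraries in 1 fit, with Benjamini-Hochberg adjustment over the 4847 genes. The recovered reads were also tested in edgeR 4.0.16 and in DESeq2 1.42.0 as alternatives, with other pseudocounts, filters, scalings, designs and left-out libraries, 17 in all. Scripts were tested on simulated data. With 2 cultures per condition, p-values measure only the spread between these.

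The members and lists were chosen with earlier results of these data known. All 10 genes were named. From each list, up to 3 called genes with the largest change between rapalink-1 and untreated cells were named, with mik1, pom1, ppk18, igo1, pab1, suc1, ste9, plo1, cdc10 and cdc18 whether called or not. Sequences came from RefSeq, assembly ASM294v3, which held all 10 genes. Ratios of 2 genes were tested by an exact permutation test. Counting error alone was at most 5.39% for the lowest of the 10 genes (cig2) and 1.19% for the highest (cdc13).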

Additional observations from a re-analysis of the deposited data

How the results depend on the processing

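Of the 12 calls made for the 10 genes, 3 held in every alternative that tested them: cdc13 and cig2 with rapalink-1 against untreated cells, and cdr1 between the drugs. None of the 3 rapamycin calls did. With rapamycin against untreated cells, 859 genes and 3 of the 10 were called, but 413 and 0 without the intensity trend, and edgeR called 5 of the 10. Leaving out 1 library gave 240 to 982 genes and 0 to 4 of the 10. With rapalink-1 against untreated cells this range was 1687 to 2143 genes and 3 to 5 of the 10, and between the drugs 1275 to 1729 genes and 1 to 3 of the 10. The difference in the cdc25 to wee1 ratio ranged over left-out libraries from -0.284 to -0.176 with rapamycin, -0.212 to -0.175 with rapalink-1 and -0.0182 to 0.0905 between the drugs. For cdc13 to cdc2 the ranges were -0.00254 to 0.187, -0.226 to 0.215 and -0.319 to 0.123.

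Log2 values changed sign only for genes not called in that comparison. After quantile normalization cdc25 was at -0.0017 with rapamycin and cig1 at 0.0026 between the drugs, and under the filter at 10 FPKM cdr2 was at 0.00024 with rapalink-1. The other sign changes came from leaving out 1 library. With rapamycin, cdc25 then ranged from -0.0052 to 0.05005, cig1 from -0.0785 to 0.0293 and rum1 from -0.0135 to 0.117. With rapalink-1, cdr2 ranged from -0.0495 to 0.0228, cig1 from -0.0836 to 0.0237 and wee1 from -0.0637 to 0.0153. Between the drugs, cig1 ranged from -0.0171 to 0.0116, puc1 from -0.0022 to 0.121, cdc2 from -0.0147 to 0.0677, cdc13 from -0.0571 to 0.0310 and rum1 from -0.0052 to 0.188. Without the intensity trend, limma gave adjusted p-values with rapamycin of 0.0522 (cdc2), 0.0589 (cdc13) and 0.0905 (cdr1), and of 0.0766 for cdr1 with rapalink-1. Without a filter they were 0.0694 for cdr1 with rapamycin, 0.0674 for puc1 with rapalink-1 and 0.0599 for wee1 between the drugs. For cdr1 with rapalink-1, the fit of those conditions alone gave 0.0695 and DESeq2 gave 0.0507. The causes were not tested. Over the 10 genes, 3 comparisons and all alternatives, calls were lost in 37 cases and gained in 9, the sign changed in 16, and the direction and call stayed in 445.

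The labels do not say whether libraries with the same duplicate number share a mother culture. The check made here cannot settle this, since each condition gives a single duplicate difference per gene. The correlations of duplicate differences between conditions were -0.011, 0.0011 and 0.0415. A fit with the replicate number as a block called 864, 2288 and 1791 genes and 3, 6 and 3 of the 10. Depth limits chiefly cig2 and puc1, the genes with fewest reads.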
